A study of Mus musculus with 6 samples.

Results

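The transcripts of 9 transcription factors of the oligodendrocyte lineage (Olig1, Olig2, Sox10, Sox5, Sox6, Nkx2-2, Nkx6-2, Myrf and Tcf7l2) were followed across the cell types of the hypothalamus. They were chosen by name, as factors known to act in this lineage, and all 9 were among the 16411 genes listed in the deposited counts. The cells came from male ob/ob mice, which lack leptin and are obese and diabetic, aged 11 weeks and housed singly on chow. Each mouse had received 3 µg of the R50E mutant of FGF1 (a fibroblast growth factor) into a cerebral ventricle and was killed on day 5. The hypothalamus was dissociated into single cells, and the 10x Genomics Chromium 3′ v2 chemistry was used, which counts transcripts by unique molecular identifiers (UMIs) near their 3′ ends. Of 6 labelled samples of 1 mouse each, 4 had cells in the table (mice 3, 4, 30 and 34), with 20151 cells in all. All labelled mice had the same genotype and treatment, so cell types were compared within mice, and no effect of the mutant was estimated.

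Oligodendrocytes wrap axons in myelin, and they arise from dividing oligodendrocyte precursor cells (OPCs) through a short-lived stage of committed precursors (COPs). Olig2 and Sox10 are known to set up and hold the identity of the lineage, Sox5 and Sox6 to act in its precursor stage, and Myrf to switch on myelin genes once cells leave the cycle. Nkx2-2 and Tcf7l2 are known for roles around the onset of differentiation, and Nkx6-2 for a role in myelin and in the contacts between myelin and axon.

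The authors' labels gave 1261 OPCs, 681 COPs and 4566 oligodendrocytes, and the lineage was compared mainly with 5909 astrocytes, the other main glial type of the tissue. Levels are given in CPM, the counts of a gene scaled to 1e6 UMIs of its cell type in a mouse. Most defining markers had their highest mean in the type they mark: 5 of 5 for OPCs, 4 of 5 for COPs and 6 of 7 for oligodendrocytes. The exceptions were Vcan, a marker of COPs (504 CPM in OPCs and 348 in COPs), and Mbp, a marker of oligodendrocytes (8501 CPM in COPs and 7040 in oligodendrocytes). Pdgfra, the growth factor receptor of OPCs, was at a mean of 1259 CPM in OPCs, 12.9 in COPs and 13.9 in oligodendrocytes. Gpr17, a receptor of the committed stage, was at 614, 2951 and 22.0 CPM in the same order. Mog, a surface protein of mature myelin, was at 3.78, 162 and 1015 CPM. The sum of 5 neuronal markers was higher in OPCs (921 to 1195 CPM over mice) than in COPs (175 to 452) and oligodendrocytes (229 to 477), and its part in the results for OPCs was not tested. Meg3, a long non-coding RNA, made up most of that sum in OPCs, with a mean of 782 of 1082 CPM. Rbfox3, a neuronal splicing factor, was at 10.8, 9.91 and 11.8 CPM in OPCs, COPs and oligodendrocytes, and Stmn2, a neuronal protein that binds tubulin, at 76.9, 43.9 and 77.2 CPM. The synaptic genes Snap25 and Syt1 were highest in OPCs, at 173, 47.3 and 98.6 CPM and at 39.8, 17.4 and 26.2 CPM in the same order. The UMIs summed per mouse ranged from 235526 to 456745 in OPCs, from 208955 to 498365 in COPs and from 486049 to 2319177 in oligodendrocytes. Cells differed in depth: the median was 1020 UMIs per cell in OPCs, 1771 in COPs and 1136 in oligodendrocytes, and within COPs mice 3 and 34 had 2403 and 2343 and mice 4 and 30 had 1220 and 1081. Of the labelled cells, 78.9% of COPs, 21.0% of OPCs and 12.3% of oligodendrocytes had at most 10% mitochondrial UMIs. The comparisons were refitted on such cells alone, and the closing section gives the outcome. Of 19954 distinct cell barcodes, 194 occurred in more than 1 mouse.

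In these mice the factors followed different courses along the lineage. Olig1, Olig2 and Sox5 were highest in OPCs. Sox6, Nkx2-2 and Tcf7l2 were highest in COPs and lower in oligodendrocytes. Myrf was high in COPs and oligodendrocytes alike, and Nkx6-2 was highest in oligodendrocytes. Sox10 was present throughout the lineage, between 210 and 440 CPM. The counts come from 3′ tags and are not scaled to transcript length, so each factor was compared only with itself across cell types.

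**Figure D1:**
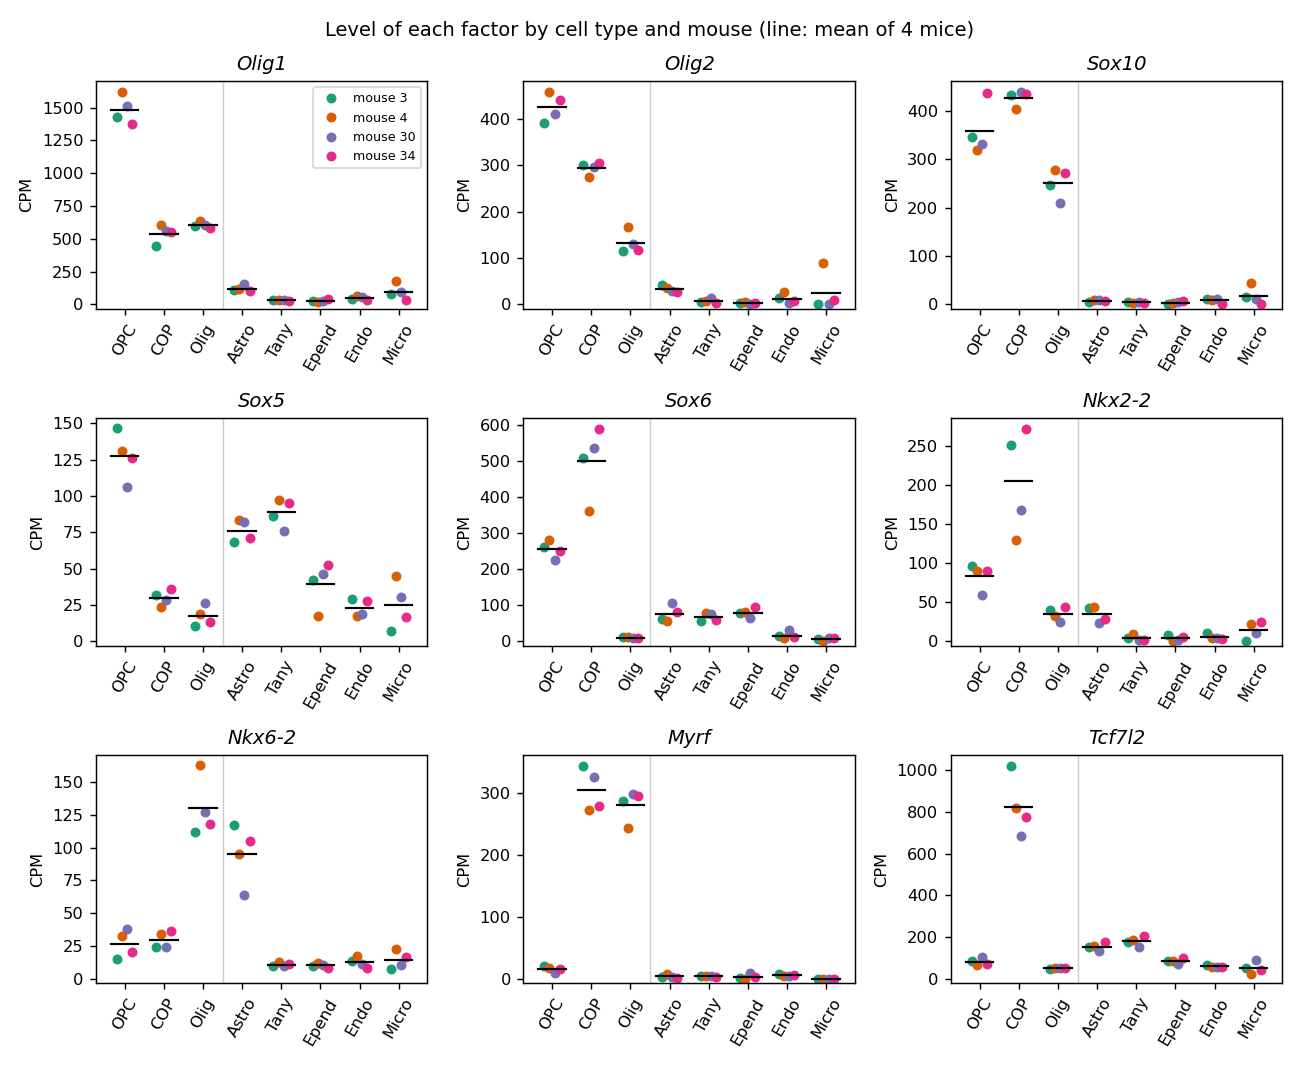
Level of each factor in CPM (vertical axes, linear from 0, a scale for each gene) in 8 cell types, with a point for each of 4 mice and a line at their mean. OPC, COP and Olig (oligodendrocytes) stand left of the grey line, and astrocytes (Astro), tanycytes (Tany), ependymal (Epend), endothelial (Endo) and microglial (Micro) cells stand right of it. Tcf7l2 in COPs lies between 684 and 1021 CPM, above its values in all other types drawn, and Nkx6-2 in astrocytes (64.0 to 117 CPM) reaches its range in oligodendrocytes (112 to 163 CPM).

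Each pair of cell types was compared over the sums per mouse with edgeR's quasi-likelihood F test, with the mouse as a block. A gene was called where the Benjamini-Hochberg adjusted p over all genes tested was below 0.05 and the log2 fold change was above 1 or below -1. The labels of the cell types were probably drawn from these very counts, so the calls describe the labelled types and give no independent evidence for them. From OPCs to COPs, 3 of the 8 factors tested were called higher and 2 lower, where 10.8% of 4879 genes were called higher and 13.2% lower. From COPs to oligodendrocytes, 1 of 9 was called higher and 3 lower (13.8% and 13.3% of 6209 genes). Between oligodendrocytes and OPCs, 2 were called higher in oligodendrocytes and 3 lower (12.8% and 15.2% of 6497 genes). Between OPCs and astrocytes, 5 of the 8 tested were called higher in OPCs and 2 lower (10.9% and 12.4% of 6902 genes). The median log2 difference of the factors tested was 0.64, -0.72, -0.84 and 1.26 in these 4 comparisons, beside -0.01, 0.01, 0.00 and 0.01 over all genes tested.

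**Figure D2:**
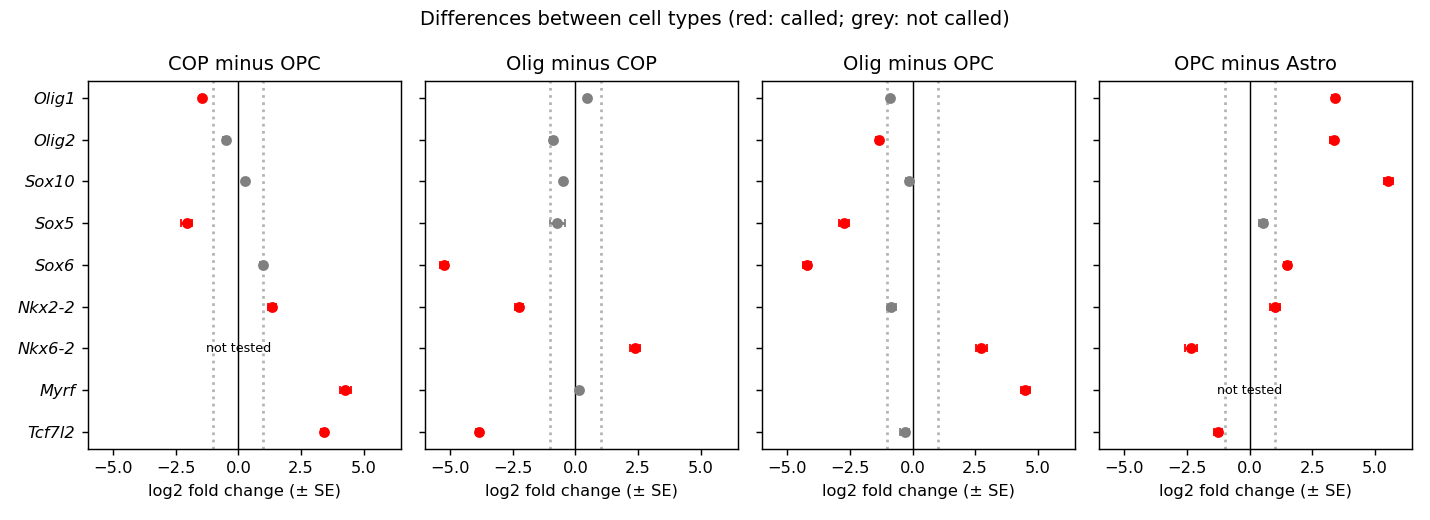
Log2 fold change (horizontal axes, with the standard error) of each factor in 4 comparisons of cell types over 4 mice. Red points were called, grey points were not, and dotted lines mark log2 fold changes of 1 and -1. Nkx6-2 from OPCs to COPs and Myrf between OPCs and astrocytes did not pass the filter on low counts. Sox6 and Tcf7l2 lie farthest below 0 from COPs to oligodendrocytes (-5.26 and -3.84).

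Normalization bears on these values. The 10 most abundant genes held 22.5% of the UMIs of oligodendrocytes, 17.3% of those of OPCs and 16.0% of those of COPs. The TMM factors used here moved the median gene by 0.28 (log2) from COPs to oligodendrocytes, by 0.42 between oligodendrocytes and OPCs and by -0.31 between OPCs and astrocytes, relative to scaling by totals alone. CPM values are scaled by totals, so a factor can be lower in CPM in oligodendrocytes while its fitted difference is near 0. With totals only, 2 factors were called higher and 5 lower between oligodendrocytes and OPCs, 1 higher and 5 lower from COPs to oligodendrocytes, and 5 higher and 1 lower between OPCs and astrocytes.

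Sequence before the start site is shown for Tcf7l2 and Sox6, which had their peak in COPs, and for Nkx6-2, which had its peak in oligodendrocytes. RefSeq start sites (GRCm38.p6) were matched for 6 of the 9 factors, with 12 start sites in all, and 3′ tags do not show which start site was used. The 150 bases before the start were searched on both strands for a Sox motif (ACAATG or ACAAAG, read as CATTGT or CTTTGT on the other strand) and a Tcf/Lef motif (CTTTGA, or TCAAAG on the other strand, where the letters CAAAG are shared by both motifs). Capitals mark the matches. The windows are Tcf7l2 at chr19:55741660-55741809 on the plus strand, Sox6 at chr7:115995087-115995236 on the minus strand, which is the third of 6 listed start sites, and Nkx6-2 at chr7:139582798-139582947 on the minus strand.
Tcf7l2: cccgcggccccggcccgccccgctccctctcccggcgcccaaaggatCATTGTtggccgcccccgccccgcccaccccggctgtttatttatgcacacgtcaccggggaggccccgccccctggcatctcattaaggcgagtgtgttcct
Sox6: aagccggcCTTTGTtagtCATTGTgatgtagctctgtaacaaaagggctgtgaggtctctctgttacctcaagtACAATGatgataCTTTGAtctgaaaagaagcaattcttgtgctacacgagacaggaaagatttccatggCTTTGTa
Nkx6-2: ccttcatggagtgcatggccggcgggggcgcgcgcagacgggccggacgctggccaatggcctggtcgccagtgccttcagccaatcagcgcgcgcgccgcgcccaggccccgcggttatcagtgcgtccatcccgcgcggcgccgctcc
The Tcf7l2 window held 1 Sox motif, the Sox6 window held 4 Sox motifs and 1 Tcf/Lef motif, and these letters were not in the Nkx6-2 window. The Sox6 window was chosen after the matches were seen and held the most Sox motifs of its 6 start sites, of which the others held 1, 0, 1, 2 and 0. The window of Nkx2-2, which was also highest in COPs, held neither motif, so no link between these letters and the courses was read. Of 32851 windows of this length before RefSeq start sites, 15.5% held a Sox motif and 7.93% a Tcf/Lef motif. These matches describe letters and show no binding.

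Olig1 and Olig2 are neighbouring genes for bHLH factors. Olig2 specifies the lineage in development, and Olig1 acts in its maturation and in repair. Olig2 lies at chr16:91225457-91228677 and Olig1 at chr16:91269772-91271933, both on the plus strand (GRCm38). The start of Olig1 lies 41095 bases after the end of Olig2. Olig1 was at 1430, 1623, 1516 and 1372 CPM in the OPCs of mice 3, 4, 30 and 34. It was at 443, 604, 560 and 551 CPM in COPs, and at 594, 639, 605 and 585 CPM in oligodendrocytes. The OPC values lay above all others, while those of COPs and oligodendrocytes overlapped. Olig1 fell from OPCs to COPs by 1.45 on the log2 scale (SE 0.08, adjusted p = 1.8e-30, lower in 4 of 4 mice). Counted per cell over the pooled cells, without scaling to totals and with no test, the fall was smaller, from 1.59 UMIs per OPC to 0.981 per COP, a log2 difference of -0.70 that lay within the limit on fold change. From COPs to oligodendrocytes it differed by 0.46 (SE 0.09, adjusted p = 1.7e-05), which was below the limit on fold change, came to 0.18 with totals only and to -0.39 for UMIs per cell. Between oligodendrocytes and OPCs it differed by -0.92 (SE 0.08, adjusted p = 1.3e-20), just short of a call, by -1.33 with totals only and by -1.08 for UMIs per cell.

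Olig2 stepped down at each stage. It was at 392, 459, 412 and 441 CPM in OPCs of mice 3, 4, 30 and 34, at 301, 275, 297 and 304 CPM in COPs and at 116, 167, 130 and 118 CPM in oligodendrocytes. The ranges of the 3 stages did not overlap. The fall between OPCs and oligodendrocytes was called at -1.34 (SE 0.10, adjusted p = 1.9e-23). Each of the smaller steps had an adjusted p below the threshold but not the fold change, with -0.49 from OPCs to COPs (SE 0.11, adjusted p = 1.5e-04) and -0.91 from COPs to oligodendrocytes (SE 0.12, adjusted p = 3.1e-10). The first step depended on the unit: over the pooled cells, Olig2 had 0.460 UMIs per OPC and 0.554 per COP, since COPs held more UMIs in all. The second was called without mouse 4 (-1.08) and with totals only (-1.19), and was -1.80 for UMIs per cell.

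Sox10 encodes the Sox factor that drives many myelin genes together with Myrf. It lies at chr15:79154908-79165240 on the minus strand. Its level was 346, 320, 331 and 438 CPM in OPCs of mice 3, 4, 30 and 34, 433, 404, 440 and 435 CPM in COPs, and 248, 278, 210 and 272 CPM in oligodendrocytes. OPC and COP values overlapped through mouse 34, and the oligodendrocyte values lay below both. None of the 3 differences within the lineage was called: 0.28 from OPCs to COPs (SE 0.11, adjusted p = 0.028, higher in 3 of 4 mice), -0.48 from COPs to oligodendrocytes (SE 0.10, adjusted p = 4.4e-05) and -0.14 between oligodendrocytes and OPCs (SE 0.10, adjusted p = 0.22). The last was -0.56 with totals only (adjusted p = 4.7e-07), still within the limit on fold change. UMIs per cell moved the first 2 differences past that limit, to 1.004 and -1.32, with 0.4005 UMIs per OPC, 0.803 per COP and 0.322 per oligodendrocyte. Against astrocytes, in contrast, Sox10 had the largest difference of the 8 factors tested, with 5.53 (SE 0.18, adjusted p = 1.9e-35).

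Sox5 and Sox6 encode Sox factors without an activation domain of their own, which are known to hold precursors back from early differentiation. Their genes are long, Sox5 at chr6:143828425-144781977 and Sox6 at chr7:115470872-116038796, both on the minus strand. The pair parted at the COP stage. Sox5 was at 147, 131, 106 and 126 CPM in OPCs of mice 3, 4, 30 and 34 and at 32.1, 23.8, 28.7 and 36.2 CPM in COPs, with no overlap. It fell by 2.06 on the log2 scale (SE 0.23, adjusted p = 1.8e-13). In oligodendrocytes it was at 10.8, 18.9, 26.7 and 13.5 CPM, which overlapped with COPs, and the difference of -0.72 was not called (SE 0.31, adjusted p = 0.041). With totals only it was called, at -1.002 (adjusted p = 0.0056), and it was -1.66 for UMIs per cell.

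Sox6, by contrast, was at 263, 283, 225 and 252 CPM in OPCs and at 510, 363, 536 and 590 CPM in COPs of the same mice. All COP values lay above all OPC values, and the lowest was that of mouse 4. The difference of 1.00 (SE 0.12, adjusted p = 2.6e-12) fell just short of the limit on fold change and so was not called. It was called without mouse 4 (1.18), without the filter on low counts (1.09) and in a joint fit of 4 types (1.07), and it was 1.74 for UMIs per cell. In oligodendrocytes Sox6 was at 11.2, 13.3, 10.3 and 8.67 CPM, far below both earlier stages. It fell from COPs to oligodendrocytes by 5.26 on the log2 scale (SE 0.16, adjusted p = 3.1e-42), the largest difference of any factor within the lineage. It also fell relative to OPCs, by 4.21 (SE 0.17, adjusted p = 2.3e-46).

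Nkx2-2 and Nkx6-2 encode homeodomain repressors. Nkx2-2 promotes the start of differentiation, and Nkx6-2 is expressed in myelinating cells. Nkx2-2 (chr2:147177546-147194243, minus strand) was at 96.3, 90.2, 59.4 and 89.5 CPM in OPCs of mice 3, 4, 30 and 34, at 251, 129, 168 and 272 CPM in COPs and at 40.1, 32.2, 24.7 and 43.9 CPM in oligodendrocytes. The 3 ranges did not overlap. The COP values spread most, with a coefficient of variation of 33.0% over mice, where counting alone would give 12.7%. The higher COP values were those of mice 3 and 34, whose COPs were also the deeper ones, and the part of depth in this was not tested. Nkx2-2 rose from OPCs to COPs by 1.35 on the log2 scale (SE 0.17, adjusted p = 2.7e-11) and fell from COPs to oligodendrocytes by 2.26 (SE 0.15, adjusted p = 2.2e-22), each in 4 of 4 mice. Between oligodendrocytes and OPCs its difference of -0.84 was not called (SE 0.18, adjusted p = 3.8e-05). Over the alternatives that difference ran from -1.30 to -0.71, and it was called under some of them.

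Nkx6-2 (chr7:139579376-139582797, minus strand) rose where Nkx2-2 fell, from COPs to oligodendrocytes. It was at 15.3, 32.8, 38.2 and 20.6 CPM in OPCs and at 24.1, 34.0, 23.9 and 36.2 CPM in COPs of mice 3, 4, 30 and 34, values that overlapped and came from only 33 and 37 UMIs. In oligodendrocytes it was at 112, 163, 128 and 118 CPM, above all earlier values. It rose from COPs to oligodendrocytes by 2.40 (SE 0.20, adjusted p = 2.4e-17) and between OPCs and oligodendrocytes by 2.75 (SE 0.20, adjusted p = 5.4e-25). Inpp5a, a phosphatase gene, overlaps Nkx6-2 on the other strand, and its mean was 36.1 CPM in oligodendrocytes and 12.6 CPM in COPs. The use of strand in counting is not given in the sources used here. Reads from the shared stretch thus cannot be assigned with certainty. The same holds for Nkx2-2 and 6430503K07Rik, a non-coding RNA on its other strand, which was at 20.3, 18.0 and 13.4 CPM in OPCs, COPs and oligodendrocytes.

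Myrf encodes a membrane-bound factor that cleaves itself and then activates myelin genes (chr19:10208272-10240748, minus strand). It was at 19.7, 16.4, 8.49 and 16.1 CPM in OPCs of mice 3, 4, 30 and 34, which together held 22 UMIs of it. In COPs it was at 343, 272, 325 and 279 CPM and in oligodendrocytes at 287, 242, 298 and 295 CPM. Myrf thus separated OPCs from both later stages without overlap, while COPs and oligodendrocytes overlapped. It rose from OPCs to COPs by 4.26 on the log2 scale (SE 0.22, adjusted p = 1.4e-32) and was higher in oligodendrocytes than in OPCs by 4.51 (SE 0.19, adjusted p = 1.4e-44). From COPs to oligodendrocytes the difference of 0.14 was not called (SE 0.11, adjusted p = 0.26), and its sign turned with totals only (-0.14) and for UMIs per cell (-0.72).

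Tcf7l2 encodes a partner of β-catenin in Wnt signalling that is known to mark oligodendrocytes at the onset of differentiation (chr19:55741820-55933654, plus strand). It was at 85.4, 65.6, 102 and 71.1 CPM in OPCs of mice 3, 4, 30 and 34, at 1021, 818, 684 and 775 CPM in COPs, and at 47.0, 51.1, 49.4 and 50.9 CPM in oligodendrocytes. COPs stood far above both neighbours in every mouse. Tcf7l2 rose from OPCs to COPs by 3.42 on the log2 scale (SE 0.13, adjusted p = 7.0e-42) and was lower again in oligodendrocytes than in COPs, with a log2 difference of -3.84 (SE 0.12, adjusted p = 4.6e-42). OPCs and oligodendrocytes did not overlap in CPM, but the fitted difference of -0.31 was not called (SE 0.18, adjusted p = 0.14).

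Outside the lineage the 9 factors divided further. The 7 oligodendrocyte markers, myelin genes among them, were also detected in astrocytes, tanycytes, ependymal cells, endothelial cells and microglia, where their sum reached between 4.44% and 8.03% of its level in oligodendrocytes, and this gives a background against which the factors can be read. Sox10 in these 5 types stood at 1.46% to 6.93% of its oligodendrocyte level and Myrf at 0% to 1.92%, each below the markers' share in the same type, except that Sox10 in microglia was above it without mouse 3 (7.22% against 6.57%) or mouse 34 (9.48% against 8.44%). No UMI of Myrf was found in 380 microglia, which allows up to 7.58 CPM. Olig1 and Olig2 in astrocytes were at 120 and 32.9 CPM, or 19.7% and 24.8% of their oligodendrocyte levels, above the markers' share of 6.94%. In endothelial cells they were at 7.54% and 9.44%, also above the markers' share there of 5.99%. In microglia they were at 15.6% and 18.5%, from 31 and 5 UMIs. Of the 5 UMIs of Olig2, 4 came from mouse 4, and without that mouse Olig2 was at 2.32%, below the markers' 8.33%, and Olig1 at 11.2%. Both were nevertheless higher in OPCs than in astrocytes, by 3.39 for Olig1 (SE 0.10, adjusted p = 1.3e-37) and by 3.35 for Olig2 (SE 0.14, adjusted p = 1.8e-30).

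The homeobox pair and the remaining factors were not confined to the lineage. Nkx6-2 was at 117, 95.1, 64.0 and 105 CPM in astrocytes of mice 3, 4, 30 and 34, of which that of mouse 3 lay within the range of oligodendrocytes and the others below it. It was lower in OPCs than in astrocytes by a log2 difference of -2.35 (SE 0.23, adjusted p = 1.6e-13). Inpp5a on the other strand was at 21.8 CPM in astrocytes. Nkx2-2 in astrocytes was at a mean of 34.7 CPM, beside 35.2 CPM in oligodendrocytes, with overlapping ranges. It was higher in OPCs than in astrocytes by 1.01 (SE 0.18, adjusted p = 4.4e-06), at the very limit of a call, and between 0.87 and 0.99 under 6 alternatives. The transcript on its other strand, 6430503K07Rik, was at 38.9 CPM in astrocytes.

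Sox5, Sox6 and Tcf7l2 were each present in the 3 glial types that share the parenchyma or the ventricular wall with the lineage. Sox5 had its second highest level in tanycytes, the glia of the floor of the third ventricle, at 88.8 CPM, and was at 76.2 CPM in astrocytes, both above its levels in COPs and oligodendrocytes without overlap. Its difference of 0.53 between OPCs and astrocytes was not called (SE 0.15, adjusted p = 0.0022) and was 1.07 for UMIs per cell. Sox6 was at 80.0, 77.2 and 67.8 CPM in ependymal cells, astrocytes and tanycytes, whose ranges overlapped, and it was higher in OPCs than in astrocytes by 1.51 (SE 0.14, adjusted p = 8.3e-15). Tcf7l2 was at 179 CPM in tanycytes and 153 CPM in astrocytes, with overlap, and was lower in OPCs than in astrocytes by a log2 difference of -1.25 (SE 0.15, adjusted p = 2.8e-10), or -0.94 and not called with totals only, and -0.76 for UMIs per cell. In the other 3 types its order was ependymal cells (84.7 CPM), endothelial cells (58.5 CPM) and microglia (52.0 CPM), and oligodendrocytes at 49.6 CPM stood last, overlapping with microglia.

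Single cells were then thinned to 400 UMIs each, so that the share of cells with a UMI could be compared across depths, and no cell was shallower than that. At this depth Olig1 was found in 43.0% ± 3.29 of OPCs (SD, n = 4), in 21.0% ± 3.21 of COPs and in 21.3% ± 0.51 of oligodendrocytes. Endothelial cells and microglia, which should lack Olig1, gave 2.50% and 1.26%, with median depths of 1064 and 939 UMIs before thinning. Tcf7l2 was found in 30.0% ± 2.47 of COPs, in 3.25% ± 1.46 of OPCs and in 2.00% ± 0.28 of oligodendrocytes, and tanycytes gave 6.97% ± 0.73. The share of COPs exceeded that of any other type in every mouse. Without thinning the shares were 65.5%, 7.88% and 5.62% in COPs, OPCs and oligodendrocytes.

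Myrf was found in 9.42% ± 2.02 of COPs, 11.0% ± 1.52 of oligodendrocytes and 0.75% ± 0.39 of OPCs, and in 0 of 1266 endothelial cells and 0 of 380 microglia, which allows shares of cells with a UMI of up to 0.237% and 0.789% at this depth. Unthinned, the shares of Myrf were 41.1%, 27.3% and 1.52% in COPs, oligodendrocytes and OPCs, so without thinning the order of the deeper COPs and the oligodendrocytes turned. Sox6 was found in 16.2% ± 3.44 of COPs, 9.51% ± 0.83 of OPCs and 0.44% ± 0.10 of oligodendrocytes (53.1%, 23.3% and 1.26% unthinned), beside 0.90% in endothelial cells. The oligodendrocyte share of Sox6 thus lay below the endothelial share (SD 0.94). It lay above the 0.20% of microglia, where 1 cell of 380 held a UMI. A UMI of at least 1 of the 9 factors was found in 67.5% ± 2.62 of OPCs, 69.9% ± 3.47 of COPs and 45.8% ± 1.54 of oligodendrocytes, against 20.6% ± 1.25 of astrocytes and 7.21% ± 1.89 of endothelial cells.

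**Figure D3:**
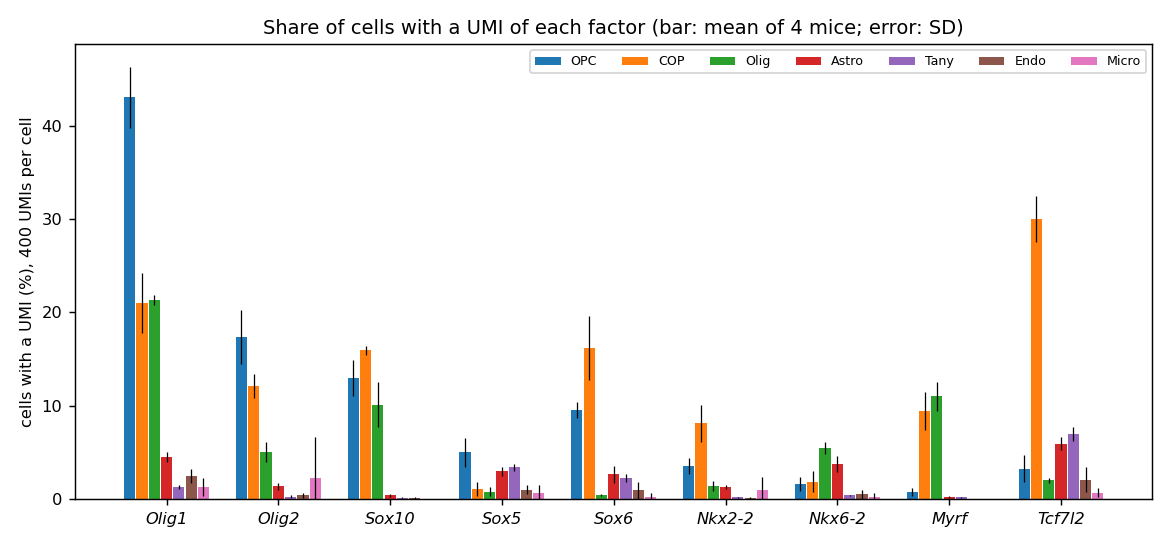
Share of cells with a UMI of each factor (percent, vertical axis from 0) after thinning every cell to 400 UMIs, in 7 cell types. Bars are means of 4 mice and error bars are SDs. Tcf7l2 stands out in COPs at 30.0%, Olig1 in OPCs at 43.0%, and Myrf is near 0 outside COPs and oligodendrocytes.

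Factors were also counted together in the thinned cells and set beside the number that the shares of each alone would give within a mouse. In OPCs, Olig1 and Olig2 occurred together in 96 cells (93.1 from the shares), and Olig1 and Sox10 in 75 cells (69.9). In COPs, Tcf7l2 and Myrf occurred together in 25 cells (18.7 from the shares), and Sox6 and Myrf in 13 cells (9.94). Olig1 and Myrf occurred together in 12 COPs (12.8 from the shares). The part of doublets and free RNA in such pairs was not tested. In oligodendrocytes, Olig1 and Myrf occurred together in 115 cells (107 from the shares). Sox10 and Myrf did so in 48 oligodendrocytes (52.3), and Sox6 and Myrf in 1 (2.36). Sox5 and Sox6 were found together in 3 OPCs (6.12 from the shares), and Nkx2-2 and Nkx6-2 in 1 COP (0.93). These counts are small, cells of 1 mouse are not replicates, and no test was made.

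Across 32 sums of a mouse and a cell type (8 types), the genes whose log2(CPM + 1) ran most like each factor were ranked by Pearson's r among 9927 genes, as a description, since the 4 sums of a type share their labels and the types of a mouse share a library. Olig1 ran most like Sox10 (r = 0.94), and Sox10 most like Gjc3, a connexin gene of glia (r = 0.96), with Olig1 as its second. Olig2 ran most like Gal3st1 (r = 0.90), the enzyme that makes the myelin lipid sulfatide, and Myrf most like Sept7 (r = 0.95), a cytoskeletal septin. Sox6 ran most like Snrpd1 of the spliceosome (r = 0.90) and Tcf7l2 most like Prdx2, a peroxidase (r = 0.89). Nkx2-2 ran most like 1700066M21Rik (r = 0.91), Nkx6-2 most like 5031439G07Rik (r = 0.92) and Sox5 most like Dclk1, a microtubule-associated kinase (r = 0.83). Between the factors themselves r was 0.77 for Sox6 and Tcf7l2 and 0.50 for Sox5 and Sox6.

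Other regulators known in the lineage were read from a list of 39, of which 37 were in the counts. From OPCs to COPs 29 could be tested, and 7 rose while 8 fell (median log2 difference 0.09), where 10.8% of all genes tested were called higher and 13.2% lower. From COPs to oligodendrocytes 3 of 30 rose and 7 fell (median -0.40), beside 13.8% and 13.3% of all genes. Between OPCs and oligodendrocytes 6 of 33 rose and 9 fell (median -0.41), beside 12.8% and 15.2%. Hes5 and Hes1, repressors downstream of Notch, fell by 3.38 and 2.61 (log2) from OPCs to COPs. Myt1 and Id2, a zinc finger factor and an inhibitor of bHLH factors, fell by 2.56 and 2.14, and Sox11 fell by 2.09. In the same step Sox4 rose by 2.46, Zeb2, a repressor needed for myelination, by 1.85, Thra, a thyroid hormone receptor, by 1.81 and Zfp488, a partner of Olig2, by 1.56.

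St18, a zinc finger gene related to Myt1, had 1 UMI in OPCs and 110 in COPs, a ratio of 118 in CPM with a counting interval from 20.8 to 4707. Sox4 shared the course of Sox6 and Tcf7l2, with means of 173, 931 and 13.3 CPM in OPCs, COPs and oligodendrocytes, and it fell from COPs to oligodendrocytes by 5.84 (log2). Zfp488, Sox2, Hdac2 and Sox11 fell in that step by 2.75, 2.06, 1.82 and 1.35. Prox1, Zfp536 and Tle1 rose in it by 2.88, 2.56 and 2.48, and were thus the only regulators of the list called higher in oligodendrocytes than in COPs, as Nkx6-2 was among the 9 factors. Between OPCs and oligodendrocytes Sox11, Sox4, Hes5 and Hes1 fell by 3.44, 3.30, 2.76 and 1.86, and Zfp536, Prox1, Tle1 and Zeb2 rose by 3.23, 2.01, 1.75 and 1.53. For 2 regulators that comparison rested on 1 UMI in a type: the ratio in CPM was 636 for Myt1 (counting interval 113 to 25296), higher in OPCs, and 127 for St18 (22.7 to 5024), higher in oligodendrocytes.

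**Figure D4:**
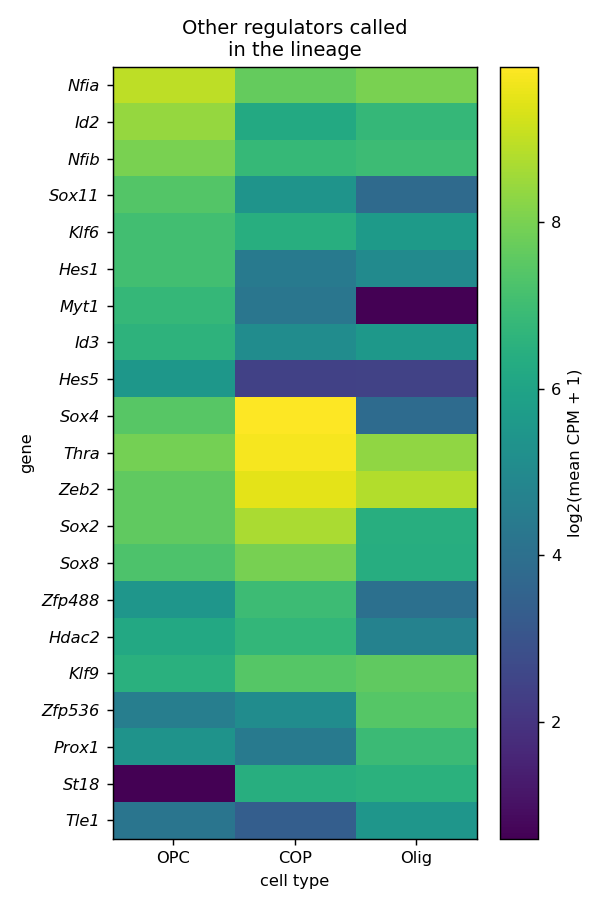
Mean level over 4 mice, as log2(CPM + 1) on the colour scale, of 21 regulators of the list that were called in at least 1 of the 3 comparisons within the lineage (rows), in OPCs, COPs and oligodendrocytes (Olig, columns). Genes are ordered by the type in which they were highest: 9 in OPCs, 7 in COPs and 5 in oligodendrocytes.

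Genes known as targets of Sox10 or Myrf, a list of 14 myelin and oligodendrocyte genes, were read beside the factors. From OPCs to COPs, where Myrf rose, 10 of 11 tested rose and none was called lower, beside 10.8% and 13.2% of all genes. A gene low in OPCs, such as Mog, passed the filter on low counts only through its level in COPs, so this count gives no support for a shared rise. The 3 targets not tested in that step were Ermn, Gjb1 (16.2 CPM in OPCs and 5.56 in COPs) and Opalin (3.18 and 34.4 CPM). From COPs to oligodendrocytes, where Myrf was not called, 9 of 14 rose and 1 fell (median 1.56), beside 13.8% and 13.3% of all genes. Between OPCs and oligodendrocytes 14 of 14 rose (median 5.04), beside 12.8%. The filter bears on these later counts in the same way, as Mog and Opalin were at 3.78 and 3.18 CPM in OPCs. The later counts thus give no support for a shared rise either. Members of the list differed in when they rose: Mag rose by 6.04 from OPCs to COPs and by 1.51 from COPs to oligodendrocytes. Ermn, a cytoskeletal gene of mature myelin, was at 12.7, 13.5 and 1243 CPM in OPCs, COPs and oligodendrocytes and rose by 6.69 in the last step. Nfasc, which anchors the contact of myelin and axon, was highest in COPs, with 83.6, 2921 and 374 CPM in the 3 stages, and was the member that fell from COPs to oligodendrocytes (by 2.68). Myelin genes were also detected outside the lineage. Mbp was at 2289 CPM in astrocytes, 2503 in microglia and 1733 in endothelial cells, beside 2203 CPM in OPCs. The part of free RNA in such levels was not tested.

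Of a list of 10 precursor genes, 6 fell from OPCs to COPs and 2 rose (median log2 difference -2.35), where 13.2% of all genes tested were called lower and 10.8% higher. Those that rose were Gpr17 (2.28) and Bmp4, which had 2 UMIs in OPCs and 446 in COPs, a ratio of 239 in CPM with a counting interval from 65.9 to 1983. From COPs to oligodendrocytes 7 of 8 tested fell and none was called higher (median -4.82), beside 13.3% and 13.8% of all genes. Between OPCs and oligodendrocytes 9 of 9 tested fell (median -6.13), beside 15.2% called lower. The filter bears on these counts in the same way, through genes high in only 1 of the types compared. Several of these genes, and some of the targets, are themselves markers by which such cell types are named.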

How the data were processed

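Whole-number UMI counts per gene and cell, deposited by the authors together with a cell type label, were used for the 4 labelled mice with cells. The submitters' processing notes name Cell Ranger 1.2, Seurat and the builds GRCm38, mm10 and GRCh38. The deposited mitochondrial percent and the doublet score, a fraction between 0 and 1, were used only in alternatives. A depth-corrected table was not used, nor were 50172 cells of 12 libraries without a labelled sample. Every cell held at least 487 UMIs. The deposited cells were taken as filtered by the authors; no doublet caller was run.

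UMIs were summed per mouse and type (at least 20 cells) and tested with edgeR 4.0.16 in R 4.3.3 (TMM, filterByExpr, quasi-likelihood F test, mouse as block, Benjamini-Hochberg). The steps were tested on simulated data. DESeq2 1.42.0 and 11 other settings were tried. Standard errors were derived from the F statistic. Regulators were named as the 5 called genes of largest fold change in each direction and comparison. The p-values measure the spread between these mice. Intervals (exact, 95%) and floors (3 UMIs) cover counting error only. Gene positions came from GENCODE vM21 (GRCm38). The factors, lists, tests and alternatives were chosen with earlier results of these data known. Some genes of the lists are not reported here.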

Additional observations from a re-analysis of the deposited data

Results flagged for a closer look

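Of 72 combinations of a factor and a cell type, 3 held a mouse set apart from the other 3 by Dixon's test (4.17%, where chance sets apart about 1 in 20). Olig2 in microglia was at 89.4 CPM in mouse 4, from 4 UMIs, and between 0 and 8.42 CPM in the other mice. In endothelial cells, Nkx2-2 of mouse 3 was at 10.3 CPM, from 6 UMIs, and between 3.27 and 4.33 CPM in the others. In the same cells, Tcf7l2 of mouse 3 was at 63.4 CPM, from 37 UMIs, and between 56.3 and 57.2 CPM in the others.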

How the results depend on the processing

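Of 403 refitted log2 differences of the factors, 384 kept their direction and their side of the thresholds, 11 passed them anew, 7 no longer passed and 1 turned, that of Myrf from COPs to oligodendrocytes with totals only (-0.14). UMIs per cell, a unit with no test that was added after seeing the data, gave 34 further values, of which 22 kept their direction and their side of the limit on fold change and 9 changed side. The other 3 turned: Myrf (-0.72) and Olig1 (-0.39) from COPs to oligodendrocytes and Olig2 from OPCs to COPs (0.27). COPs held more UMIs per cell. The number of factors called stayed within 1.5 times in 48 of 48 settings. Over all genes the numbers called were 1172, 1683, 1820 and 1604 from OPCs to COPs, from COPs to oligodendrocytes, between oligodendrocytes and OPCs and between OPCs and astrocytes. Without the filter on low counts they were 2301, 2594, 3054 and 2725, with more genes tested. With cells of at most 10% mitochondrial UMIs they were 709, 940, 818 and 486, from fewer cells and, for astrocytes, 3 mice. That limit kept 537 of 681 COPs, 265 of 1261 OPCs and 561 of 4566 oligodendrocytes. Under it, 58.8% of calls from OPCs to COPs were higher (45.1% with all cells) and 57.3% between oligodendrocytes and OPCs (45.7%). The factors called were 3 higher and 2 lower, 1 and 3, 2 and 4, and 4 and 1 in the 4 comparisons. The joint fit gave 1961 in the first comparison, and sums thinned to the smallest total gave 1061 in the second and 1040 in the last. With totals only, 34.9% of calls from COPs to oligodendrocytes were higher (50.8% with TMM), 27.7% between oligodendrocytes and OPCs (45.7%) and 63.4% between OPCs and astrocytes (46.8%). Without mouse as a replicate block, Nkx2-2 between OPCs and astrocytes was 0.98 and not called, and no other factor's call changed. Leaving out each mouse gave 5 to 6, 4 to 5, 5 and 6 to 7 factors called in the 4 comparisons. Depth limits Myrf and Nkx6-2 in OPCs and all factors in microglia.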
